A study of Mus musculus with 141 samples.

Results

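Iron handling and acute phase genes were described in single lung epithelial cells of a mouse that carries an *Aqp5* lineage reporter. The set holds 9 genes that were chosen by name, with earlier results of these data known: *Tfrc*, *Fth1*, *Ftl1*, *Slc40a1*, *Trf*, *Cp*, *Hp*, *Lcn2* and *Hmox1*. Of these, 8 were among the 17136 genes analysed, and *Slc40a1*, the iron exporter ferroportin, was not analysed here. The cells came from the lungs of 1 male *ACID;R26tdTomato* mouse of 4 months, with the strain labelled 129SV and no substrain in that label. They were sorted as CD31- CD45- E-cadherin+ tdTomato+ before capture on a Fluidigm C1 chip. In this line Cre is made from the *Aqp5* locus and switches on *tdTomato* for good, so the reporter can mark cells that no longer express *Aqp5*, and all groups below share this genotype and this sort. No treatment is labelled, and there is no second mouse. The cells are therefore 1 sample, so levels are described without any test between cells, and intervals in parentheses cover counting error only.

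Cells take up iron bound to transferrin (*Trf*) through the transferrin receptor (*Tfrc*), store it in a shell of ferritin heavy and light chains (*Fth1*, *Ftl1*) and release it through ferroportin. Ceruloplasmin (*Cp*) oxidises the released iron so that transferrin can bind it, haptoglobin (*Hp*) binds free haemoglobin, lipocalin 2 (*Lcn2*) binds bacterial iron carriers, and heme oxygenase 1 (*Hmox1*) frees iron from heme. Several of these secreted proteins rise in plasma during the acute phase response, and the lining of the airways and alveoli makes some of them locally.

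Of the deposited cells, 92 had under 15% of their reads on mitochondrial (mt-) genes and were kept while 49 were removed. The kept cells were sequenced to 142003 to 2170760 reads per cell with a median of 553963. Levels are given in CPM, a gene's reads scaled to the same total in every cell. Although all cells are labelled alveolar type 1, only 45 of the 92 kept cells reached 5000 CPM of *Ager*, an AT1 gene, and these form the type 1 class, which is AT1-like. The type 2 class, which is AT2-like, holds the 11 cells with at least 8000 CPM of *Sftpc*, an AT2 gene. The remaining cells were split by *Scgb1a1*, a club cell gene, into 12 Scgb1a1-high cells with at least 50000 CPM and 24 Scgb1a1-low cells. Each of the first 3 classes was high in the list of its name: 45 of 45 type 1 cells were high in the AT1 list, 11 of 11 type 2 cells in the AT2 list and 12 of 12 Scgb1a1-high cells in the club list. Each of these lists has 8 genes and includes the gene that defines the class, which exceeds 100 CPM there by the rule. A cell is called high in a list when no fewer of its genes exceed 100 CPM than do not.

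The Scgb1a1-low class was a mixture. It held 12 cells high in the ciliated list, 6 high in the basal list, 2 high in the fibroblast list, which the E-cadherin sort would remove, and 4 high in none of these 3. The club list was also high in 7 of its cells, in 4 type 1 cells and in 1 type 2 cell. The AT2 list was high in 4 of 12 Scgb1a1-high cells, the ciliated list in 1 of them and the AT1 list in 1 Scgb1a1-low cell. Few cells lay near a threshold. The lowest type 1 cell had 9335 CPM of *Ager* and the highest cell outside had 1402, the values for *Sftpc* were 25437 and 7774, and those for *Scgb1a1* were 174821 and 41995. The cell with 7774 CPM of *Sftpc* was also the deepest of all cells and belongs to the Scgb1a1-high class with 281134 CPM of *Scgb1a1*. No kept cell passed 2 thresholds.

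RNA of blood cells was looked for because these genes are also active there. *Ptprc* and both haemoglobin genes analysed, *Hba-a1* and *Hba-a2*, had 0 reads in every kept cell, and the neutrophil list was not analysed here. Of the 9 macrophage markers 3 were analysed, and besides *Ptprc* these were *Csf1r*, at 348 CPM in type 1 cells, and *Lyz2*, which AT2 cells also express, at 13869 CPM in type 2 cells. With only 3 of its 9 markers analysed, no cell could be called high in the macrophage list, so that list cannot show whether macrophage RNA was present. No kept cell was high in the list of 4 endothelial markers, of which *Cldn5* had 0 reads.

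Class levels below are the CPM of the summed reads of a class with an exact Poisson 95% interval, and folds compare that level with the one in all other kept cells, on the log2 scale. Of the 9 genes, 7 reached 10 CPM over the kept cells, as 8975 genes did, and a difference of at least 4-fold was called. In type 1 cells 0 of the 7 genes were called higher, beside 17.4% of all tested genes, and 4 were called lower (*Hp*, *Cp*, *Trf* and *Lcn2*), beside 20.9%. In type 2 cells 1 gene was called higher (*Lcn2*), beside 5.58% of all tested genes, and 2 were called lower (*Cp* and *Trf*), beside 47.4%. In Scgb1a1-high cells 2 genes were called higher (*Hp* and *Cp*), beside 4.47%, and 1 lower (*Lcn2*), beside 45.3%. In Scgb1a1-low cells 1 gene was called higher (*Trf*), beside 16.6%, and 3 lower (*Hp*, *Tfrc* and *Lcn2*), beside 20.2%. These calls depend on each other, since 1 high class can make a gene lower in the rest. *Hp*, called lower in Scgb1a1-low cells, stood at 363 CPM there and at 11.4 CPM in type 1 cells.

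The median log2 fold of the 7 genes was -6.26 in type 1 cells, -0.90 in type 2 cells, 1.15 in Scgb1a1-high cells and -0.32 in Scgb1a1-low cells, and over all 8975 genes it was 0.04, -1.64, -1.62 and 0.19. At a limit of 2-fold the count higher was 2 in type 2 cells, beside 13.9% of all tested genes, 4 in Scgb1a1-high cells, beside 10.1%, and 2 in Scgb1a1-low cells, beside 31.7%. At the same limit the count lower was 5 in type 1 cells, beside 31.7% of all tested genes, 3 in type 2 cells, beside 56.6%, 1 in Scgb1a1-high cells, beside 59.1%, and 3 in Scgb1a1-low cells, beside 29.4%. Scaling by TMM in place of total reads moved every fold of a class alike, by 0.02, 0.45, 0.87 and -0.41 log2 units in the same order. The plot of folds shows that the secreted carriers spread over many log2 units while both ferritin chains stay near 0.

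**Figure D1:**
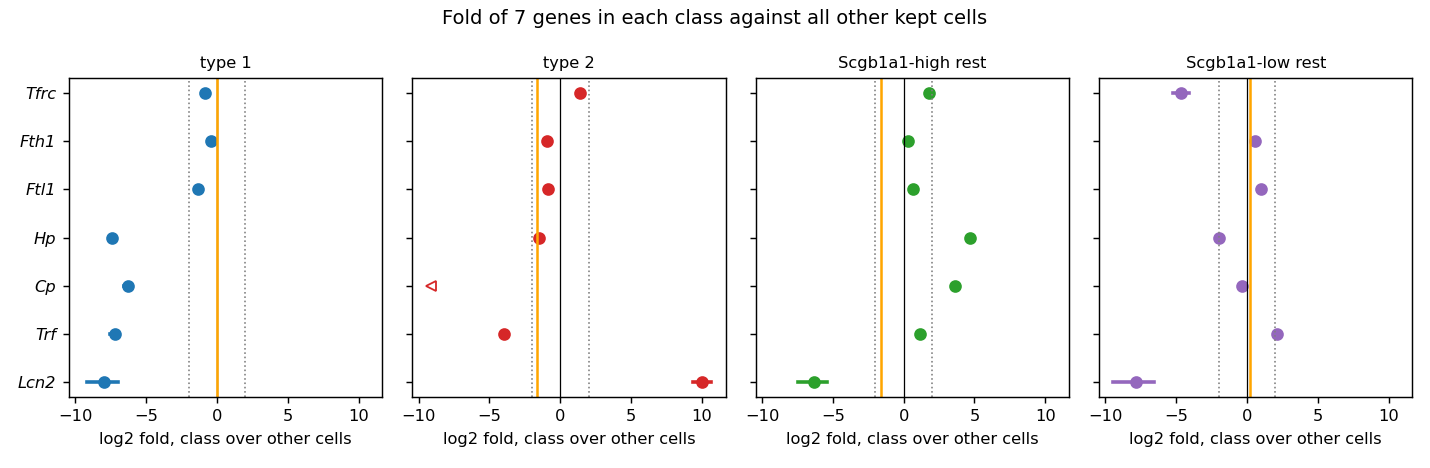
Log2 fold (x axis) of 7 genes (y axis) in each class against all other kept cells, 1 panel per class. Bars are 95% counting intervals where wider than the point, the open triangle is an upper bound for *Cp*, which had 0 reads in type 2 cells, dotted lines mark 4-fold and the orange line is the median of all tested genes. *Lcn2* lies at 10.00 in type 2 cells and below -6 in the other 3 classes, while *Fth1* and *Ftl1* lie between -1.33 and 1.01 in all 4.

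Uptake and storage share a control by RNA structure. A short hairpin called the iron-responsive element sits in the 5′ UTR of ferritin and ferroportin mRNA, where bound regulators block translation, and in the 3′ UTR of *Tfrc* mRNA, where they protect it from decay. The counts show mRNA only, so the translational arm of this control is outside what they measure. The elements are shown as matches of letters, which show neither binding nor control where present and do not exclude them where absent. They were found in GENCODE vM21 transcripts (GRCm38) as a C, 5 bases, the loop letters CAGTGN with a last base other than G, and 5 bases that pair with those before the loop when G-T pairs are allowed. The sense strand was searched, the loop is in capitals and each site lies in 1 exon:
*Fth1*, 5′ UTR, chr19:9982732-9982760, plus strand: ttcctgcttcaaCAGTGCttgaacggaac
*Ftl1*, 5′ UTR, chr7:45459779-45459807, minus strand: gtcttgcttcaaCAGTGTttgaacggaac
*Slc40a1*, 5′ UTR, chr1:45925465-45925493, minus strand: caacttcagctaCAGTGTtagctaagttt
*Tfrc*, 3′ UTR, chr16:32631219-32631247, plus strand: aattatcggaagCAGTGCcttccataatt
*Tfrc* held 4 such matches in its 3′ UTR and *Fth1*, *Ftl1* and *Slc40a1* held 1 each. The other 5 members held 0. Such letters occurred in 0.106% of 49055 5′ UTRs and 0.359% of 44309 3′ UTRs of protein-coding transcripts.

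*Tfrc* (chromosome 16, 32608920 to 32632794, plus strand), the uptake receptor, was rarely detected. It had reads in 7 of 45 type 1 cells, 4 of 11 type 2 cells, 5 of 12 Scgb1a1-high cells and 3 of 24 Scgb1a1-low cells, so the lowest and the median cell of every class stood at 0. The highest cell reached 494 CPM in type 1 cells, 562 in type 2 cells, 292 in Scgb1a1-high cells and 29.2 in Scgb1a1-low cells. The class levels were 23.04 CPM (21.1 to 25.1), 73.8 (67.3 to 80.7), 77.9 (72.8 to 83.2) and 1.83 (1.23 to 2.63). The Scgb1a1-low level was thus the lowest, with a log2 fold of -4.65 (-5.24 to -4.13), and it was at 0.22 CPM in chip columns 1 to 10 and 4.10 CPM in columns 11 to 20. In the other classes the log2 folds were -0.84 (-0.99 to -0.69) in type 1, 1.37 (1.21 to 1.52) in type 2 and 1.77 (1.64 to 1.90) in Scgb1a1-high cells. Among the other 3 classes the size of the gaps rests on single cells, while their order does not. A single cell gave 85.1% of the type 2 reads and another gave 72.5% of the Scgb1a1-high reads, and without the top cell the levels were 11.8, 12.3 and 26.6 CPM.

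In type 2 cells *Tfrc* stood at 0.71 CPM in chip columns 1 to 10 and 130 CPM in columns 11 to 20, and the log2 fold was -5.60 in the first columns and 2.71 in the second. Both type 2 cells over 100 CPM of *Tfrc* also had over 900 CPM of *Lcn2*. Among the removed cells *Tfrc* had reads in 9 of 49.

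Ferritin was present almost everywhere. *Fth1* (chromosome 19, 9980598 to 9985098, plus strand), the heavy chain that oxidises iron for storage, had reads in 90 of 92 kept cells. Its cells ranged from 0 to 5606 CPM in the type 1 class with a median of 1003, from 68.2 to 1770 in the type 2 class with a median of 950, from 3.17 to 3909 in the Scgb1a1-high class with a median of 1246 and from 164 to 5385 in the Scgb1a1-low class with a median of 1661. The ranges overlapped in every pair of classes. The class levels were 1266 CPM (1251 to 1280), 862 (840 to 885), 1817 (1792 to 1842) and 1977 (1956 to 1999), and the log2 folds were -0.43 (-0.45 to -0.41), -0.90 (-0.94 to -0.86), 0.32 (0.30 to 0.34) and 0.55 (0.53 to 0.57). In Scgb1a1-high cells the deepest cell held 41.6% of the *Fth1* reads, and without the top cell of each class the log2 fold was -0.01. The spread within a class was larger than between classes, as 5 type 1 cells with 200587 to 733477 reads had under 20 CPM of *Fth1* and 2 Scgb1a1-high cells had 3.17 and 7.72 CPM.

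*Ftl1* (chromosome 7, 45457944 to 45459884, minus strand), the light chain that nucleates the iron core, had reads in 89 of 92 kept cells. It ranged from 0 to 1464 CPM with a median of 263 in type 1 cells and from 151 to 1774 CPM with a median of 358 in type 2 cells. Scgb1a1-high cells ranged from 75.9 to 2109 CPM with a median of 708, and Scgb1a1-low cells from 105.6 to 2118 CPM with a median of 853. The medians of both Scgb1a1 classes thus stood above those of type 1 and type 2 cells, though the ranges overlapped. The class levels were 347 CPM (339 to 354), 388 (373 to 403), 921 (904 to 939) and 1029 (1014 to 1045), and the log2 fold was -1.33 (-1.36 to -1.29) in type 1 cells and 1.01 (0.98 to 1.04) in Scgb1a1-low cells. Types 1 and 2 differed by 1.12-fold and both Scgb1a1 classes by 1.12-fold, and leaving out the top cell of each class gave 316 and 388 CPM for the first pair and 637 and 979 CPM for the second.

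The balance of reads between the chains differed between classes. There were 3.65 *Fth1* reads (3.56 to 3.74) per *Ftl1* read in type 1 cells, 2.22 (2.12 to 2.33) in type 2 cells, 1.97 (1.93 to 2.02) in Scgb1a1-high cells and 1.92 (1.89 to 1.96) in Scgb1a1-low cells. These are ratios of reads and not of molecules, because the transcripts differ in length. Inside the Scgb1a1-low class the ratio was 1.01 in the 6 cells of the basal list, 1.86 in the 12 cells of the ciliated list and 4.29 in the 2 cells of the fibroblast list. Across cells both chains moved together only weakly, with a Spearman rho of 0.33 over 92 kept cells that share a library depth per cell.

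Both ferritin chains have near copies in the genome that counting can confuse. A total of 12 copies of *Ftl1* analysed here, mostly pseudogenes and small RNA models, held 58.3, 55.4, 57.8 and 60.7 reads per 100 *Ftl1* reads in the 4 classes. *Fth1* had 1 such copy, *Gm6977*, with at most 3.49 reads per 100. Adding the copies left the log2 folds of *Ftl1* at -1.33, -0.87, 0.63 and 1.04. The level of *Ftl1* is therefore uncertain by the reads of its copies.

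Ferritin was also set beside the mitochondrial share, and the classes differed in this. Kept type 2 cells had a median of 950 CPM of *Fth1*, and the 16 type 2 cells removed for mt- reads had a median of 20.5 CPM with 5 of them at 0, while *Ftl1* had medians of 358 and 269 CPM. In type 1 cells the medians of *Fth1* were 1003 CPM in kept and 756 CPM in removed cells. Removed type 2 and type 1 cells also differed in median mt- share, at 26.6% and 19.5%. Their median reads were 244845 and 316610. The part of damage and depth in the class difference was not tested. Across the 92 kept and 49 removed cells together the Spearman rho with the mt- share was -0.35 for *Fth1* and -0.40 for *Ftl1*, as a description over cells that differ in class and depth. Over the 92 kept cells alone it was -0.11 and -0.35. Reads on mt- genes are also part of the total to which CPM is scaled. The class folds of kept cells had the same sign for *Fth1* and *Ftl1* when the removed cells were included.

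**Figure D2:**
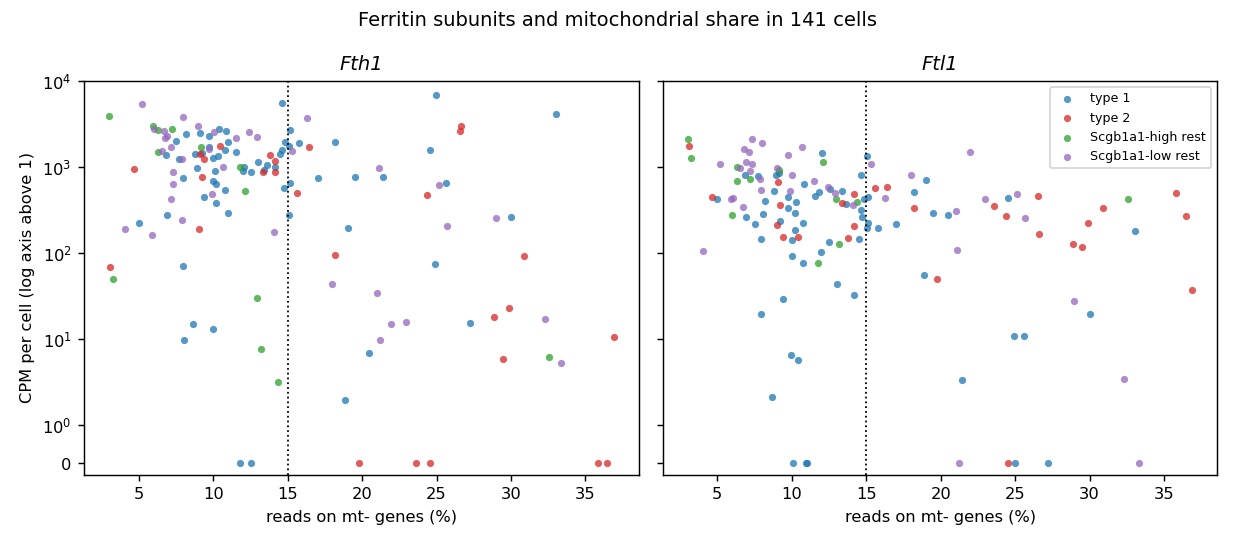
*Fth1* and *Ftl1* (y axis, CPM per cell, log above 1) against the percent of reads on mt- genes (x axis) in 92 kept and 49 removed cells, coloured by class, with the dotted line at the 15% limit. All 11 type 2 cells left of the line have *Fth1* reads, and 5 of 16 to its right stand at 0.

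Haptoglobin was high in Scgb1a1-high cells and low in type 1 cells. *Hp* (chromosome 8, 109575128 to 109579172, minus strand) ranged from 976 to 17099 CPM with a median of 3513 in Scgb1a1-high cells, and all 12 had reads. In type 1 cells it ranged from 0 to 135.8 CPM with a median of 3.48, so no type 1 cell came near the lowest Scgb1a1-high cell. Type 2 cells ranged from 0 to 2267 CPM with a median of 5.86 and Scgb1a1-low cells from 0 to 2275 CPM with a median of 7.40, and both classes thus contained few high cells among many low ones. The class levels were 11.4 CPM (10.0 to 12.8) in type 1, 444 (428 to 460) in type 2, 5008 (4967 to 5050) in Scgb1a1-high and 363 (354 to 373) in Scgb1a1-low cells.

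The log2 fold of *Hp* was -7.41 (-7.59 to -7.24) in type 1 cells, -1.48 (-1.54 to -1.43) in type 2 cells and 4.68 (4.65 to 4.71) in Scgb1a1-high cells. In Scgb1a1-low cells it was -2.001 (-2.04 to -1.96), which is at the 4-fold limit and missed it in 5 of 16 alternatives. Type 2 and Scgb1a1-low cells differed by 1.22-fold (1.17 to 1.28), and without the top cell the order turned, with 236 and 294 CPM.

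*Hp* over 100 CPM was found in 4 of 11 type 2 cells and 7 of 24 Scgb1a1-low cells. Of the latter, 3 were high in the basal list (723 to 1090 CPM), 3 in the ciliated list (677 to 2275 CPM) and 1 in none of the 3 lists (2100 CPM). The last cell had 41995 CPM of *Scgb1a1*, just under the class threshold. In the other 6 cells *Scgb1a1* was at 9.01 to 1406 CPM, far less *Scgb1a1* than the 174821 CPM of the lowest Scgb1a1-high cell. Both cells of the fibroblast list had 0 *Hp* reads.

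The small *Hp* level of type 1 cells moved with *Scgb1a1*. *Hp* reads were found in 31 of 45 type 1 cells, or 68.9% (53.4 to 81.8), and after thinning every cell to 90000 reads in 18 of 45. There were 19.3 *Hp* reads (17.0 to 21.8) per 1000 *Scgb1a1* reads in type 1 cells and 16.2 (16.1 to 16.4) in Scgb1a1-high cells, against 866 in type 2 cells and 164 in Scgb1a1-low cells. Within type 1 cells the Spearman rho of *Hp* with *Scgb1a1* was 0.82 over 45 cells. The level of *Hp* was 22.7 CPM (19.7 to 26.0) in the 18 type 1 cells whose chip column also held an Scgb1a1-high cell and 3.94 CPM (2.97 to 5.13) in the other 27. A single cell of these 18 held 39.2% of all type 1 *Hp* reads, and without it the level was 12.5 CPM (10.2 to 15.1). Without the same cell all type 1 cells together had 7.15 CPM of *Hp* and 14.7 reads (12.5 to 17.2) per 1000 *Scgb1a1* reads. Removed type 1 cells showed 16.1 *Hp* reads (12.9 to 19.98) per 1000 *Scgb1a1* reads. The part of RNA from Scgb1a1-high cells in the type 1 level was not tested.

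**Figure D3:**
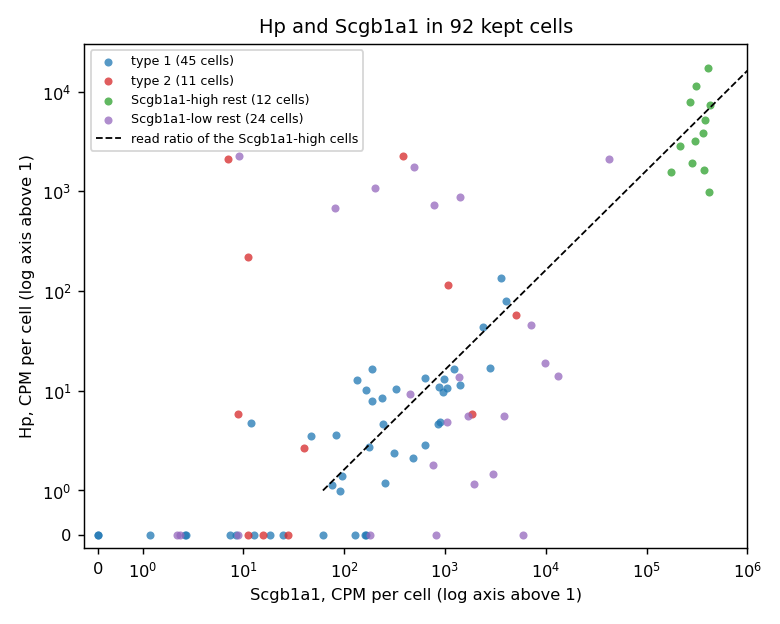
*Hp* (y axis) against *Scgb1a1* (x axis) in 92 kept cells, both in CPM per cell on axes that are logarithmic above 1, with the dashed line at the read ratio of Scgb1a1-high cells, 16.2 per 1000. Type 1 cells scatter around the line up to 135.8 CPM of *Hp*, and 4 type 2 and 7 Scgb1a1-low cells lie above it with over 100 CPM of *Hp*.

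Ceruloplasmin was highest in Scgb1a1-high cells and not detected in type 2 cells. *Cp* (chromosome 3, 19957054 to 20009145, plus strand) had reads in 12 of 12 Scgb1a1-high cells, which ranged from 4.63 to 3308 CPM with a median of 321. It had 0 reads in all 11 type 2 cells, which allows a level of up to 0.463 CPM, 3 counts of the class total, and a share of cells with a read of up to 27.3%. Type 1 cells ranged from 0 to 83.1 CPM and Scgb1a1-low cells from 0 to 1413 CPM, both with a median of 0. The class levels were 4.93 CPM (4.07 to 5.92) in type 1, 858 (841 to 875) in Scgb1a1-high and 192 (185 to 199) in Scgb1a1-low cells, and the log2 folds were -6.26 (-6.54 to -5.99), 3.63 (3.57 to 3.69) and -0.32 (-0.38 to -0.26). Against all other kept cells *Cp* was at least 550-fold lower in type 2 cells with 0 reads taken as 3 counts. With halved class thresholds, which move the deepest Scgb1a1-high cell into type 2, the log2 fold was -1.995.

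Within the Scgb1a1-low class *Cp* stood at 361 CPM (345 to 378) in the cells of the basal list, of which 3 of 6 were over 100 CPM, and at 3.17 CPM (1.96 to 4.85) in those of the ciliated list, of which 0 of 12 were. Only 1 of 2 cells of the fibroblast list had *Cp* reads, at 779 CPM. *Cp* and *Hp* were therefore both found in basal-list cells, while the 3 ciliated-list cells high in *Hp* had at most 27.02 CPM of *Cp*. The type 1 reads of *Cp* rest on the same cell as those of *Hp*, which held 55.3% of them. *Cp* stood at 9.05 CPM (7.21 to 11.2) in the type 1 cells of columns with an Scgb1a1-high cell and 2.22 CPM (1.51 to 3.15) in the others, and without that cell the first value was 2.38 CPM (1.45 to 3.67) and the intervals overlapped. There were 8.38 *Cp* reads (6.91 to 10.1) per 1000 *Scgb1a1* reads in type 1 cells, or 4.69 (3.49 to 6.17) without it, and 2.78 (2.73 to 2.84) in Scgb1a1-high cells. *Cp* overlaps a transcript of *Hps3* on the opposite strand, and since the strand setting of the counting is not given in the sources used here, reads of this overlap cannot be told apart.

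Transferrin was found in most Scgb1a1-high cells, while most of its reads in type 2 and Scgb1a1-low cells came from few cells. *Trf* (chromosome 9, 103204001 to 103230444, minus strand) ranged from 0 to 3312 CPM with a median of 210 in Scgb1a1-high cells, of which 10 of 12 had reads. It ranged from 0 to 5609 CPM in Scgb1a1-low cells, from 0 to 202 in type 2 cells and from 0 to 58.01 in type 1 cells, and the median was 0 in these 3 classes. The levels were 3.80 CPM (3.05 to 4.69) in type 1, 24.1 (20.4 to 28.2) in type 2, 596 (582 to 611) in Scgb1a1-high and 756 (743 to 770) in Scgb1a1-low cells, with log2 folds of -7.21 (-7.52 to -6.90), -3.96 (-4.19 to -3.73), 1.15 (1.11 to 1.19) and 2.15 (2.11 to 2.20). A single cell gave 52.1% of the reads in the highest class and 92.3% in type 2 cells. Without the top cell the levels of the Scgb1a1-high and Scgb1a1-low classes were 331 and 389.5 CPM and that of type 2 cells was 2.08 CPM. The log2 fold of Scgb1a1-high cells was -0.40 at an mt- maximum of 0.10. That of Scgb1a1-low cells was 1.74 with TMM, and in chip columns 11 to 20, where 1 cell held 99.9% of the reads, it was 1.38.

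Of the 6 Scgb1a1-low cells over 100 CPM of *Trf*, 3 were high in the basal list (672, 3287 and 5609 CPM), 1 in the fibroblast list (762 CPM) and 2 in none (678 and 3323 CPM). The ciliated-list cells stood at 0.45 CPM (0.09 to 1.32), or 3 reads in 12 cells. *Trf* was thus found in Scgb1a1-high and basal-list cells together with *Cp*, but not in the same amounts per cell, as the cell with 5609 CPM of *Trf* had 0 *Cp* reads and the fibroblast-list cell with *Cp* had 0 *Trf* reads.

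**Figure D4:**
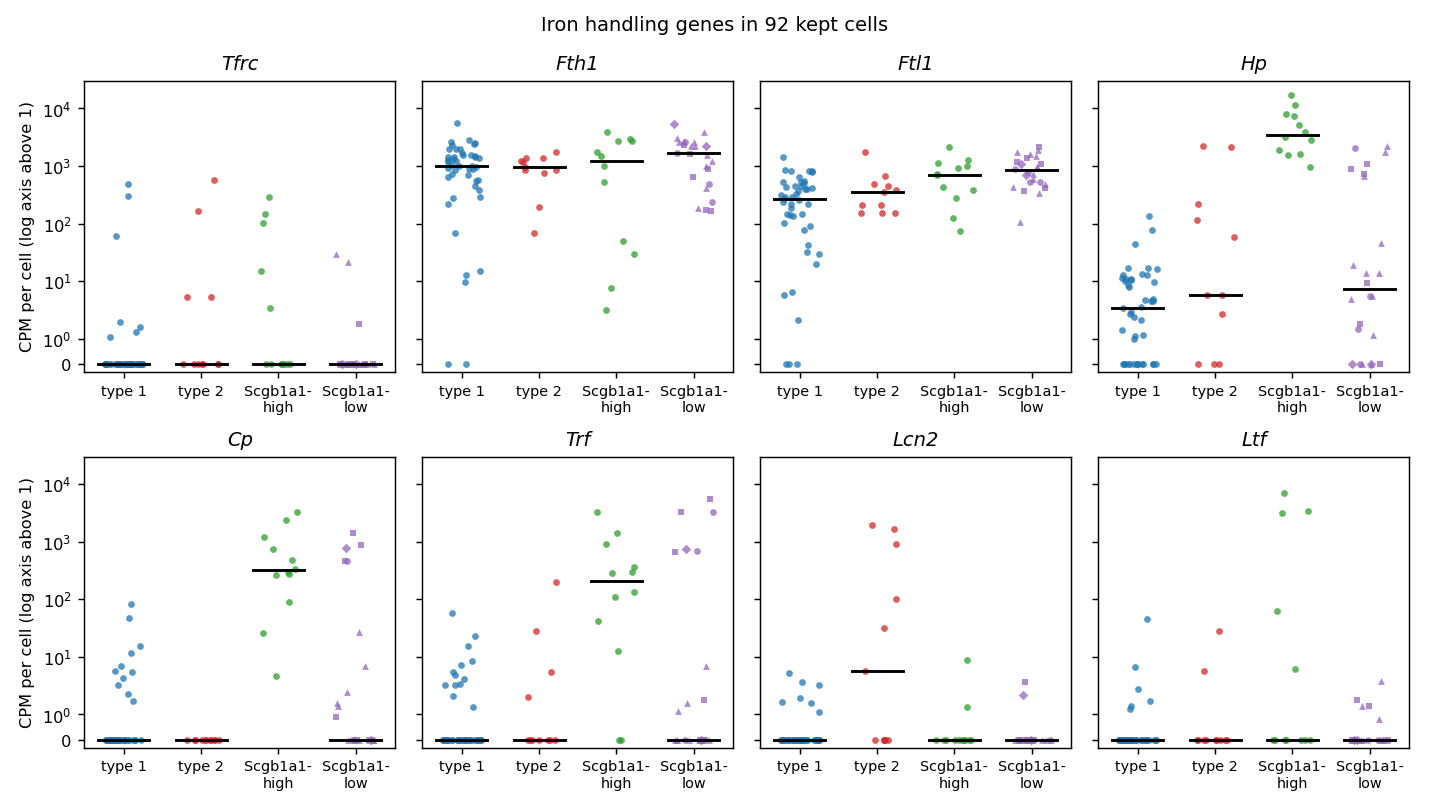
CPM per cell (y axis, logarithmic above 1) of 7 genes and of *Ltf* in the 4 classes (x axis) of 92 kept cells, with a black line at the class median. In the Scgb1a1-low class triangles are cells high in the ciliated list, squares in the basal list and diamonds in the fibroblast list. *Hp* and *Cp* are high in most Scgb1a1-high cells, *Lcn2* exceeds 100 CPM only in 4 type 2 cells, and *Fth1* and *Ftl1* are found in all classes.

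Lipocalin 2 was highest in type 2 cells. *Lcn2* (chromosome 2, 32384633 to 32388252, minus strand) ranged from 0 to 1967 CPM with a median of 5.75 in type 2 cells, where 6 of 11 cells had reads and 4 exceeded 100 CPM. The highest cell had 5.25 CPM in type 1, 8.67 in Scgb1a1-high and 3.62 in Scgb1a1-low cells, so the 4 type 2 cells stood apart from all 81 cells of the other classes and 5 type 2 cells at 0 did not. The type 2 level was 449 CPM (433 to 465) against 0.35 (0.15 to 0.68), 0.80 (0.37 to 1.52) and 0.32 (0.10 to 0.74) in the other 3, a log2 fold of 10.00 (9.40 to 10.68). A single cell held 48.3% of the type 2 reads, and the log2 fold was 10.28 without the top cell of each class. It was 10.88 in chip columns 1 to 10, where 1 of 5 cells had all the reads, and 9.20 in columns 11 to 20, where 5 of 6 had reads.

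The type 2 cells over 100 CPM of *Lcn2* had 10855 to 32814 CPM of *Lyz2*, the lysozyme gene that AT2 cells and macrophages share, and the other 7 had 14.5 to 12860 CPM. *Ptprc*, the defining gene of the haematopoietic lineage, was at 0 in all of them. Across the kept and removed type 2 cells *Lcn2* and *Hp* were not the same split. In kept cells 3 exceeded 100 CPM of both, 1 of *Lcn2* alone, 1 of *Hp* alone and 6 of neither, and in removed cells the counts were 1, 3, 5 and 7. Removed type 2 cells had reads of *Lcn2* in 8 of 16 at a level of 108.9 CPM (99.4 to 119.1), and of *Hp* in 10 of 16 at 146 CPM (135.1 to 158). Outside type 2 cells, the 1 removed Scgb1a1-high cell had 1798 CPM of *Lcn2*, and with the removed cells included the log2 fold was 4.97 in type 2 cells and was -0.13 in Scgb1a1-high cells.

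**Figure D5:**
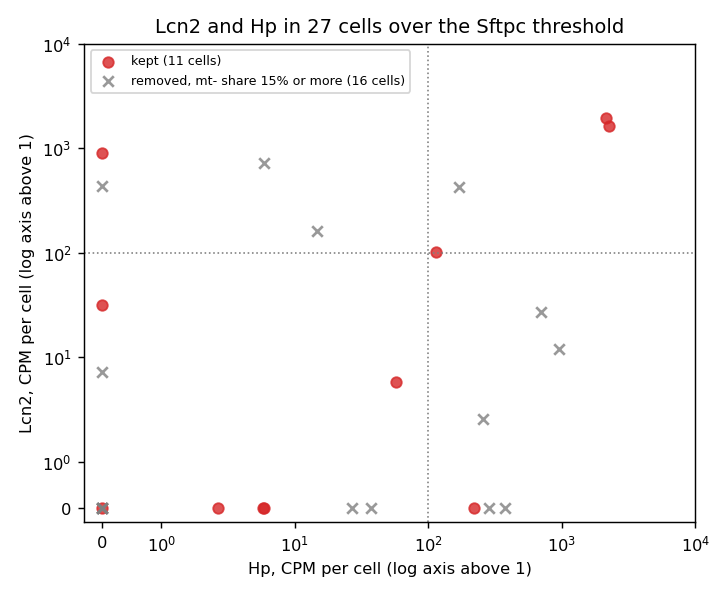
*Lcn2* (y axis) against *Hp* (x axis), in CPM per cell on axes that are logarithmic above 1, in the 27 cells over the *Sftpc* threshold, with dotted lines at 100 CPM. Kept cells (circles) and removed cells (crosses) are found on all sides of both lines, and 2 kept cells exceed 1500 CPM of both genes.

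*Hmox1* (chromosome 8, 75093621 to 75100589, plus strand), the heme oxygenase that oxidative stress and heme induce, had 0 reads in all 92 kept cells. This allows a share of cells with a read of up to 6.67% in type 1 and 27.3% in type 2 cells, with 3 counts as the limit. The only reads, 21 of them, were in 1 removed type 2 cell at 101.3 CPM, which also had 434 CPM of *Lcn2*. *Hmox2*, the constitutive heme oxygenase, had reads in 9 type 1, 3 type 2, 4 Scgb1a1-high and 4 Scgb1a1-low cells at 158, 78.3, 27.6 and 176 CPM. The top cell of each class held 46.4%, 96.8%, 46.1% and 62.5% of these reads.

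The members can be set beside 55 other genes of iron handling, of which 42 were analysed and 29 tested. In type 1 cells 4 of the 29 were at least 4-fold higher and 8 lower, beside 17.4% and 20.9% of all tested genes. In type 2 cells 1 was higher and 12 lower, beside 5.58% and 47.4%. Scgb1a1-high cells had 1 higher and 11 lower, beside 4.47% and 45.3%, and Scgb1a1-low cells 5 and 7, beside 16.6% and 20.2%. The median log2 folds were -0.32, -1.07, -0.86 and 0.63 in the same order. The counts lie near the shares of all genes. The sets by role have at most 12 tested genes, so their counts are given as description only. By role, the 3 uptake genes tested had 1 higher and 2 lower in type 1 cells, 0 and 2 in type 2 cells, 0 and 2 in Scgb1a1-high cells, and 2 and 1 in Scgb1a1-low cells. The 4 storage genes tested stayed within 4-fold apart from *Ncoa4* in type 2 cells, and neither of the 2 export genes was analysed here. Of these 4, *Gm10116* is a pseudogene counted among the *Ftl1* copies above, so it is not separate from that member. The 4 sensing genes tested had 1 higher in type 1 cells and 0 in the other classes, with 0, 1, 2 and 2 lower in class order. The 12 heme genes tested had 1, 0, 0 and 2 higher and 4, 5, 5 and 2 lower, and the 5 genes of mitochondrial iron had 1, 1, 0 and 1 higher and 1, 2, 2 and 1 lower.

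Lactoferrin (*Ltf*), a secreted iron-binding relative of transferrin, had the largest fold of the list in Scgb1a1-high cells. It had reads in 5 of 12 of them, of which 3 exceeded 1000 CPM with a maximum of 7044, at a level of 1446 CPM (1424 to 1468) and a log2 fold of 10.42 (10.01 to 10.86). It was at 1.47, 1.08 and 0.44 CPM in the type 1, type 2 and Scgb1a1-low classes. The same 3 cells had 4611 to 16039 CPM of *Lyz2*, and the other 9 had at most 11.98 CPM. The removed Scgb1a1-high cell with *Lcn2* also had 5598 CPM of *Ltf*.

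Of the genes of the list that were higher in type 1 cells, *Aco1* and *Mfsd7c* had the largest folds. *Aco1*, whose product binds iron-responsive elements when iron is low, stood at 49.1 CPM (46.3 to 52.01) with reads in 7 of 45 cells and 5 over 100 CPM, against 8.18, 2.58 and 0.13 CPM in the other classes, a log2 fold of 4.29 (3.97 to 4.63). Its partner *Ireb2* was within 4-fold in all classes at 26.9, 12.97, 11.2 and 13.6 CPM. *Mfsd7c*, also known as *Flvcr2*, had 34.4 CPM in type 1 cells with reads in 8 of 45 cells and 0, 0.27 and 0.57 CPM in the others. *Slc39a8*, a metal importer of the same list, was at 306 CPM (299 to 313) with reads in 34 of 45 type 1 cells and a log2 fold of 2.89 (2.80 to 2.97).

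Among the genes farthest from 0 in the other classes, *Lrp1*, an endocytic receptor, had 36.8 CPM in 4 of 24 Scgb1a1-low cells and 2 reads in all others. *Abcg2*, a heme exporter, had all of its 1312 reads in 1 Scgb1a1-low cell. *Fech*, the last enzyme of heme synthesis, was lower in Scgb1a1-low cells with a log2 fold of -8.27, and *Mfsd7b* in Scgb1a1-high cells with -6.83. Both folds rest on few high cells of the other classes. *Fech* had reads in 4 Scgb1a1-low, 9 type 1, 3 type 2 and 2 Scgb1a1-high cells. *Mfsd7b* had reads in 4 Scgb1a1-high, 6 type 1, 2 type 2 and 4 Scgb1a1-low cells, and 1 cell held 91.6% of its type 1 reads and another 99.8% of its type 2 reads. In type 2 cells *Glrx5*, of iron-sulphur cluster assembly, was higher with a log2 fold of 2.03, though 92.02% of its reads were in 1 cell, and *Ncoa4*, the ferritin receptor for autophagy, had 1 read. *Slc11a2*, the endosomal iron transporter that completes the transferrin route, was at 71.96 CPM in 7 of 24 Scgb1a1-low cells, 36.5 CPM in 4 of 12 Scgb1a1-high cells, 0.26 CPM in type 1 cells and had 0 reads in type 2 cells. In the Scgb1a1-high class 1 cell held 86.1% of its reads. The iron chaperones *Pcbp1* and *Pcbp2* had class levels of 76.9 to 180 CPM and 78.4 to 279 CPM, within 4-fold in all classes.

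A list of 28 further acute phase genes had 13 analysed and 9 tested. In type 1 cells 0 were at least 4-fold higher and 8 lower, beside 17.4% and 20.9% of all tested genes, with a median log2 fold of -6.96. In type 2 cells 1 was higher and 6 lower, beside 5.58% and 47.4%, with a median of -5.91. Scgb1a1-high cells had 1 higher and 2 lower, beside 4.47% and 45.3%, with a median of -1.17, and Scgb1a1-low cells had 6 higher and 2 lower, beside 16.6% and 20.2%, with a median of 2.63. *Pigr*, which carries antibodies across epithelium, was at 613 CPM in 10 of 12 Scgb1a1-high cells with a log2 fold of 8.14. *Serpina3n*, a protease inhibitor, was at 216 CPM in 7 of 24 Scgb1a1-low cells and had 5 reads in all others, with a log2 fold of 10.79 (9.56 to 12.41). *Mt1*, a metallothionein, was at 1666 CPM in 17 of 24 Scgb1a1-low cells and at 4.24 CPM in type 1 cells, with log2 folds of 3.33 and -7.86. *Chil1* was higher in type 2 cells with a log2 fold of 5.54, and 1 cell held nearly all of its reads. *C3* of complement was at 570 and 329 CPM in the Scgb1a1-low and Scgb1a1-high classes and at 2.38 and 0.46 CPM in type 1 and type 2 cells. *Mt2* had 1 read in type 2 cells, with a log2 fold of -9.78. *Vnn1* had 0 reads in Scgb1a1-high cells, at -6.84 with 0 reads taken as 3 counts. This fold rests on few cells, as *Vnn1* had reads in only 4 type 1 cells and 1 Scgb1a1-low cell.

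The list of signals that act upstream of the acute phase response had 21 of 23 genes analysed and 20 tested. It had 1 higher and 5 lower in type 1 cells, 0 and 8 in type 2 cells, 0 and 5 in Scgb1a1-high cells, and 6 and 3 in Scgb1a1-low cells, with medians of -0.74, -0.61, 0.08 and 0.94. Over all tested genes the shares higher and lower were 17.4% and 20.9%, 5.58% and 47.4%, 4.47% and 45.3%, and 16.6% and 20.2% in the same order, and the counts lower in type 1 and type 2 cells were close to them. *Il1r1*, the interleukin 1 receptor, and *Nfkbiz*, a co-regulator of *Lcn2*, were higher in Scgb1a1-low cells with log2 folds of 4.41 and 3.995, at 188 and 163 CPM. *Nfkbiz* stood at 18.1 CPM in type 2 cells, where only 2 cells had reads and 1 of them held 92.3%. In type 1 cells *Nfkbiz* was at 0.35 CPM, with a log2 fold of -8.01. *Cebpd* was lower in type 1 cells at -5.94 and *Il17rc* higher at 2.85. *Bach1*, the repressor of *Hmox1* that heme releases, was lower in Scgb1a1-low cells at -4.20. *Il17ra* had 0 reads in the same class, at -6.20 with 0 reads taken as 3 counts. This fold rests on few cells, as *Il17ra* had reads in only 1 type 1, 1 type 2 and 2 Scgb1a1-high cells. In type 2 cells *Il6ra* had 1 read, at -8.97, and *Tnfaip3* had 0 reads, at -6.15. *Tnfaip3* also had only 1 read in Scgb1a1-high cells, at -8.68. Both folds of *Tnfaip3* rest on few cells. Its other reads were in 2 type 1 cells, with 99.6% in 1 of them, and in 4 Scgb1a1-low cells.

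For each member the genes most like it over 92 kept cells were found by Spearman rho among genes with reads in at least 25% of cells. *Hp* was nearest to *Scgb1a1* (0.68), *Cp* (0.65) and *Scgb3a2* (0.61), and *Cp* to *Hp*, *1810010H24Rik* (0.63) and *Pigr* (0.63). *Trf* was nearest to *Pigr* (0.60), *Gsta3* (0.56) and *Cp* (0.54). *Fth1* was nearest to *Gm6977* (0.60) and *Ftl1* to *Gm10116* (0.94), *Gm22774* (0.93) and *Gm22751* (0.92), all of them the copies named or counted above. No gene reached a rho of 0.5 with *Tfrc* or *Lcn2*. These values follow the makeup of the classes and share the depth of each cell.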

How the data were processed

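Single cells captured on a chip were sequenced. Per the labels the authors used Trim Galore for trimming, HISAT2 for alignment (GRCm38) and featureCounts for gene counts, with versions not given in the sources used here, and the deposited counts are raw. No molecular identifiers are stated. The authors checked chip sites under a microscope and kept those holding a single cell, so no doublet caller was run here. The 9 members, the lists, the classes and the tests were chosen with earlier results of these data known.

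Cells with over 90000 reads, over 500 detected genes and an mt- share under 0.15 were kept (92), 49 were removed, and deposited cells had 91402 to 2170760 reads. Counts were summed per class and scaled to CPM with exact Poisson intervals. Shares have Clopper-Pearson intervals and ratios conditional exact ones, all at 95% and for counting error only. A level of 0 reads was set to 3 counts for a fold. Genes under 10 CPM over kept cells were not tested. Genes outside the members were named by rule: from each list the 2 farthest from 0 on each side per class past 4-fold, and for each member the 3 most correlated genes with rho of at least 0.5. *Csf1r*, *Hmox2*, *Ireb2*, *Pcbp1*, *Pcbp2*, *Slc39a8*, *Slc11a2* and *C3* were added for their role after values were seen. Older names were matched through RefSeq synonyms for 4 genes. Near copies of ferritin were found with blastn 2.17.0 at 85% identity over 100 bases, and *Gm10116* from its RefSeq name. Positions and UTRs are from GENCODE vM21. Alternatives changed the fold limit, mt- maximum, library size, scaling (edgeR 4.0.16, DESeq2 1.42.0 in R 4.3.3, for size factors only), cell weight, depth, gene filter, class thresholds, chip columns and top cells. After seeing the data, leaving out the fibroblast-list cells, adding the ferritin copies and leaving out the type 1 cell with the most *Hp* and *Cp* reads were added. The fold step was run on simulated Poisson counts of class sums with known folds. These have no spread between cells, so they check the calculation and not how single high cells move a fold. Tools were matplotlib 3.10.9, pandas 2.3.3, scipy 1.17.1 and numpy 2.4.6 in Python 3.11.15.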

Additional observations from a re-analysis of the deposited data

How the results depend on the processing

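All cells come from 1 mouse, so the spread between mice is unknown and the alternatives show how counts of genes past 4-fold depend on choices. All 14 member folds of 4-fold or more kept their sign under the alternatives, and 10 stayed past 4-fold under each. The count higher in type 2 cells, 1 as reported, was 2 at a 2-fold limit, with halved class thresholds and in chip columns 11 to 20, and the count lower was 1 with halved thresholds in place of 2. In Scgb1a1-high cells the count higher was 4 in place of 2 at a 2-fold limit, with TMM and with the median of ratios, and the count lower was 0 with all deposited cells in place of 1. In Scgb1a1-low cells the count higher was 2 in place of 1 at a 2-fold limit and 0 with TMM, with the median of ratios, in chip columns 11 to 20 and with library sizes that leave out mt-, *Ager*, *Sftpc* and *Scgb1a1* reads. Some other counts changed less. The count lower in type 2 cells was 3 at an mt- maximum of 0.10, in chip columns 1 to 10 and without top cells. In Scgb1a1-high cells the count higher was 3 at that maximum, with the library sizes just named and in either set of chip columns. The count lower in Scgb1a1-low cells was 2 with all deposited cells, equal cell weights or thinned reads. It was also 2 in chip columns 11 to 20 and without fibroblast-list cells. At halved thresholds the deepest Scgb1a1-high cell joins the type 2 class by construction. Of the 14 smaller folds 5 kept their sign. No paired analysis was possible because there is 1 group of cells. Depth limits shares of cells with a read: after thinning, type 1 cells with a read numbered 18 in place of 31 for *Hp*, 6 in place of 13 for *Trf*, 4 in place of 11 for *Cp*, 3 in place of 7 for *Tfrc* and 1 in place of 7 for *Lcn2*.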
